A study of Mus musculus with 6 samples.

Results

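The expression of 9 genes for neurotrophic factors and their receptors, out of 46078 genes counted, was compared between chronic stroke infarcts and contralateral cortices. The genes were taken by symbol. They are the ligand genes *Bdnf*, *Ntf3*, *Cntf*, and *Gdnf* and the receptor genes *Ntrk2*, *Ntrk3*, *Ngfr*, *Cntfr*, and *Gfra1*. The RNA-Seq libraries came from 3 infarcts and 3 contralateral cortices of wild-type C57BL/6J mice, listed at 3 months of age and described as male in the study's methods. All 6 tissues were collected at 7 weeks after permanent occlusion of the distal middle cerebral artery followed by hypoxia, so that the contralateral cortices come from brains with a stroke and not from unoperated brains. The labels number the libraries 1, 2 and 3 in each region without saying which infarct and which cortex came from the same mouse, and nothing in them states that each library is a separate mouse. The *p* values below therefore measure the spread between these 6 libraries.

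Neurotrophic factors are secreted proteins that keep neurons alive and shape their axons and synapses. The neurotrophins signal through Trk receptor tyrosine kinases and through the p75 receptor, which binds all of them and their uncleaved precursors. BDNF binds TrkB, which *Ntrk2* encodes, and NT-3, the product of *Ntf3*, binds mainly TrkC, which *Ntrk3* encodes. GDNF binds the membrane-anchored protein GFRα1, the product of *Gfra1*, and this complex acts through the RET kinase or the adhesion molecule NCAM. CNTF binds its own anchored receptor and then recruits the LIF receptor and the signal transducer of the IL-6 family, encoded by *Il6st*. In cortex, *Bdnf* is made mostly by excitatory neurons, whereas *Ntrk2* is made by neurons and, as a truncated form without the kinase, by astrocytes.

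The promoters of the ligand genes called in opposite directions are shown as reference sequence, because *Bdnf* is a textbook target of the activity-regulated factor CREB. RefSeq gives 21 start-site windows, of 250 bases before and 50 bases after a start, for 8 of the 9 genes, all but *Ntrk3*. Those windows were searched on both strands for the full CREB element TGACGTCA, for TCACGTCA and for the core TGACG, which lies within both. The third of the 7 *Bdnf* windows and the first of the 2 *Gdnf* windows hold a match, in capitals in the 250 bases before each start (GRCm38.p6, plus strand, 5′ to 3′).
Bdnf, chr2:109692186-109692435: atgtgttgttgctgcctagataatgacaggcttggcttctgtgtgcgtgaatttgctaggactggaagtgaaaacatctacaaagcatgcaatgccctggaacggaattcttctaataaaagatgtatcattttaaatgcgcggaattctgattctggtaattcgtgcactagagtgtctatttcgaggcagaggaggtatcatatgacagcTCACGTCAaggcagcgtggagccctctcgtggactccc
Gdnf, chr15:7809798-7810047: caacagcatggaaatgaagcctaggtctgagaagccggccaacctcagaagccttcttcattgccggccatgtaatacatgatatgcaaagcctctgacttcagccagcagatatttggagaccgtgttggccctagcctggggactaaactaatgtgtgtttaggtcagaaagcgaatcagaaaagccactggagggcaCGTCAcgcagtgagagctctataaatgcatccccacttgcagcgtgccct
The *Bdnf* window holds TCACGTCA, beginning 38 bases before the start, and TCACGTCA occurs in 0.441% of the 32851 windows of all genes. No other variant of the full element with 1 changed letter was searched, so this share is that of a single chosen sequence. The *Gdnf* window holds only the core, which reads CGTCA on the strand shown, beginning 50 bases before the start, and the core occurs in 20.8% of all windows. The full element, found in 1.79% of all windows, was in 0 of the 21. The counts are sums over all transcripts of a gene and do not show which start was used.

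Of the 9 genes, 7 passed the filter on low counts and were tested among 15554 genes. *Gdnf* rose, *Bdnf* and *Ntrk3* fell, and *Ntrk2*, *Ngfr*, *Cntfr*, and *Gfra1* were not called. To be called, a gene needed a more than 2-fold change and an adjusted *p* below 0.05. By this rule 25.7% of all tested genes were upregulated and 20.9% downregulated, so that 3 calls among 7 genes, against 46.6% of all genes in either direction, are near the background. The same 3 genes were those with an adjusted *p* below 0.05, compared with 65.0% of all genes when the fold is left aside. The ranges of the infarct and contralateral values were separate for 3 of the 7 genes, compared with 72.3% of all tested genes. Infarcts lay lower in 2 of the 7, against 34.7% of all tested genes, and higher in 1 of the 7, against 37.6%. That 1 gene, *Gdnf*, passed the filter on low counts only through the infarcts. The median log2 fold change was -0.33 over the 7 genes and 0.03 over all tested genes.

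**Figure D1:**
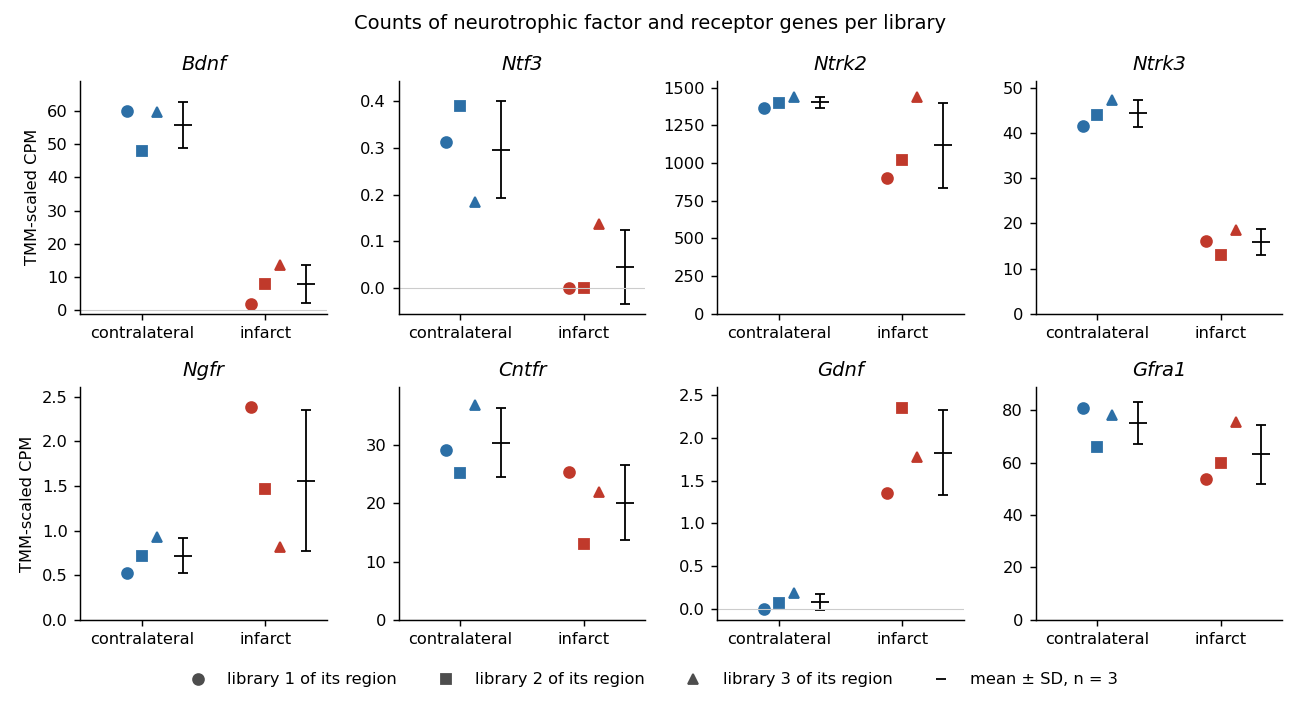
Expression of 8 of the 9 genes in each library, as read counts relative to library size (CPM) scaled with TMM on axes that include 0. Points are libraries 1 to 3 of a region, with contralateral cortices in blue and infarcts in red, and bars give the mean ± SD of 3 libraries. *Cntf*, with 0 counts in every library, is left out. *Bdnf* and *Ntrk3* lie lower and *Gdnf* higher in all 3 infarcts, and infarct 3 reaches the contralateral level of *Ntrk2*.

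*Bdnf* (ENSMUSG00000048482, chromosome 2, 109674700 to 109727007, GRCm38 as for all positions below) encodes the most widely studied neurotrophin of the adult cortex. It had 60.0, 47.9 and 59.6 CPM in contralateral cortices 1, 2 and 3 and 2.07, 8.00 and 13.7 CPM in infarcts 1, 2 and 3. Every infarct lay below every cortex, and the infarcts differed among themselves by 6.59-fold, compared with 1.25-fold among cortices. The log2 fold change was -2.81 with a SE (SE) of 0.56, and the quasi-likelihood test of edgeR, after Benjamini-Hochberg adjustment, gave an adjusted *p* of 0.00365. Mean expression was 55.8 ± 6.86 CPM in cortices against 7.91 ± 5.79 CPM in infarcts (± SD, n = 3 libraries each). The estimate ranged from -3.44 without infarct 3 to -2.34 without infarct 1, and the call held with each of the 6 libraries left out.

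Markers of neurons were lower in the same tissue. All 8 pan-neuronal markers were downregulated, with a median log2 fold change of -3.07, and their summed level was 606 to 1556 CPM in infarcts and 8570 to 9189 CPM in contralateral cortices, with none at 0. Relative to the contralateral mean, infarcts 1, 2 and 3 kept 6.87%, 9.88% and 17.6% of the pan-neuronal sum and 7.47%, 9.30% and 26.7% of the sum of 6 excitatory neuron markers. They kept 3.71%, 14.3% and 24.4% of *Bdnf*. In all of these measures infarct 1 was lowest and infarct 3 highest. The part of neuronal content in the decrease of *Bdnf* was not tested, and in bulk tissue fewer neurons and less RNA per neuron cannot be told apart.

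*Ntf3* (ENSMUSG00000049107, chromosome 6, 126101412 to 126166910), the gene of NT-3, was counted too rarely to pass the filter. It had 6, 6 and 2 counts in contralateral cortices and 0, 0 and 2 counts in infarcts. Infarct 3 equaled contralateral cortex 3 in counts and lay lower relative to library size, at 0.137 against 0.185 CPM. Summed over libraries, 2 counts in infarcts against 14 in cortices gave a ratio of 0.159 per effective library size. The exact 95% interval, from 0.0175 to 0.691, leaves out an equal level but covers counting error only. Tested without the filter, the log2 fold change of *Ntf3* was -2.43 (SE 1.28, adjusted *p* = 0.127, edgeR). A difference beyond the spread between libraries was therefore not detected at this depth.

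Among the receptors of these ligands, *Ntrk3* (ENSMUSG00000059146, chromosome 7, 78175959 to 78738012) fell. It had 41.6, 44.1 and 47.3 CPM in contralateral cortices and 16.1, 12.9 and 18.6 CPM in infarcts, with a clear gap between the regions. This is a log2 fold change of -1.48 (SE 0.18, adjusted *p* = 6.19e-05, edgeR). Infarcts 1, 2 and 3 kept 36.3%, 29.2% and 42.0% of the contralateral mean, more than of the neuronal marker sums.

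*Ntrk2* (ENSMUSG00000055254, chromosome 13, 58806569 to 59133970) had the highest level of the 9 genes, and it was not called. It had 1367, 1400 and 1441 CPM in contralateral cortices and 898, 1019 and 1437 CPM in infarcts. Infarcts 1 and 2 lay below all cortices and infarct 3 lay among them. The log2 fold change was -0.33 (SE 0.20, adjusted *p* = 0.179, edgeR), with a 95% interval from -0.78 to 0.12 that leaves out a decrease by the fold threshold of 2. Without infarct 3 it was -0.53 with an adjusted *p* of 0.00939 (edgeR), past the *p* threshold and still under the fold threshold.

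Per kilobase of annotated exon, *Ntrk2* exceeded *Ntrk3* by 51.4-, 49.7- and 47.6-fold in contralateral cortices 1, 2 and 3 and by 87.3-, 123- and 121-fold in infarcts 1, 2 and 3. The ratio was higher in every infarct than in every cortex, where an exact permutation test of 3 against 3 libraries cannot give a two-sided *p* under 0.1. Full-length and truncated receptors are summed in these counts. Of 8 astrocyte markers, 3 were upregulated, 1 was downregulated and 4 were not called, with a median log2 fold change of 0.11 and none at 0. Their summed level, to which the glutamate transporter gene *Slc1a2* gave the most counts, was 5409 to 7838 CPM in infarcts and 13609 to 14496 CPM in contralateral cortices. It was lowest in infarct 1 and highest in infarct 3, the same order as for *Ntrk2*, and the part of astrocytes in the level of *Ntrk2* was not tested.

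**Figure D2:**
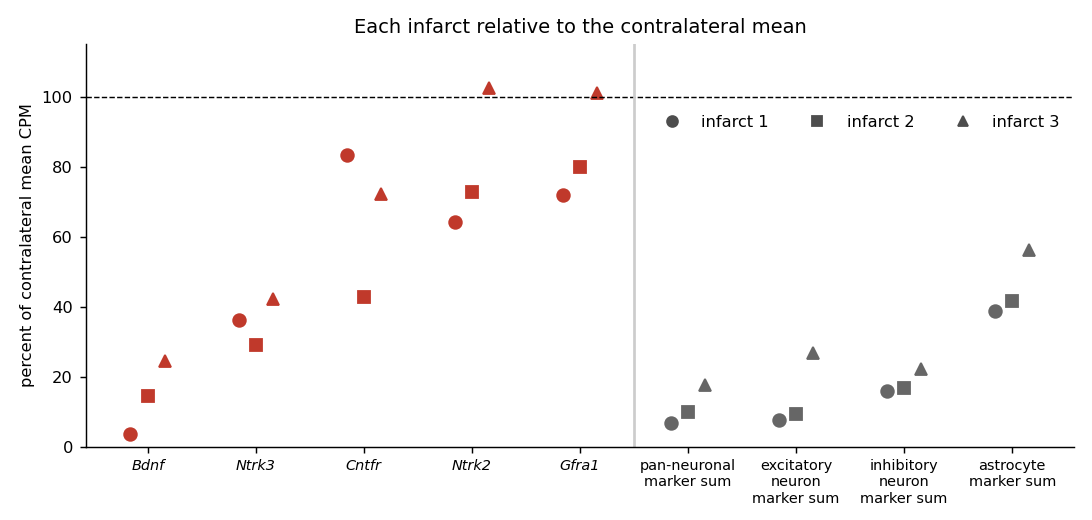
Level of 5 genes (red) and summed level of 4 lists of marker genes (gray) in each infarct, as a percentage of the mean CPM of the 3 contralateral cortices, which is the dashed line at 100. *Ntrk2* and *Gfra1* reach 102% and 101% in infarct 3, *Bdnf* spans 3.71% to 24.4%, and the pan-neuronal sum spans 6.87% to 17.6%.

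*Ngfr* (ENSMUSG00000000120, chromosome 11, 95568818 to 95587735), which encodes the p75 receptor, was rare in both regions. It had 10, 11 and 10 counts in contralateral cortices and 30, 20 and 12 counts in infarcts, or 0.522, 0.716 and 0.923 CPM against 2.39, 1.47 and 0.819 CPM. Infarcts 1 and 2 lay above all cortices and infarct 3 lay within their range. The log2 fold change was 1.13 (SE 0.50, adjusted *p* = 0.0713, edgeR; 95% interval 0.01 to 2.25), which did not pass the test. Without infarct 3 it was 1.46 (adjusted *p* = 0.0252, edgeR), and with scaling by library totals it was 1.32 (adjusted *p* = 0.0374, edgeR), so that *Ngfr* was called in both cases. Without infarct 1 it was 0.71 (adjusted *p* = 0.260, edgeR).

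Besides neurons, p75 is known from Schwann cells and from follicular dendritic cells of lymphoid tissue. Of 8 Schwann cell markers, 4 were tested, 0 were upregulated and 2 were downregulated, and their summed level was 67.0 to 85.6 CPM in infarcts and 159 to 193 CPM in contralateral cortices. *Pmp2*, which shares 86.9% of its exon bases with another gene, had 0 counts throughout. All 3 tested markers of follicular dendritic cells were upregulated, and the sum of the list was 52.7 to 133 CPM in infarcts and 1.85 to 3.45 CPM in cortices. *Cr2*, for a complement receptor, had 145, 178 and 228 counts in infarcts against 15, 11 and 5 in cortices. The sum of this list was highest in infarct 1 and lowest in infarct 3, as was *Ngfr*. That order came from *Cxcl13*, a chemokine gene with 1444, 704 and 481 counts in infarcts, whereas *Cr2* had its highest level in infarct 3. The part of these cells in the level of *Ngfr* was not tested.

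*Gdnf* (ENSMUSG00000022144, chromosome 15, 7810846 to 7837575) was the single upregulated gene of the 9. Infarcts 1, 2 and 3 held 17, 32 and 26 counts and contralateral cortices held 0, 1 and 2, or 1.35, 2.35 and 1.77 CPM against 0, 0.0651 and 0.185 CPM. Every infarct stood well above every cortex, although the gene remained rare in infarcts too. It passed the filter on low counts only through the infarcts, so its call and its separate ranges are not independent of that filter. Summed over libraries, 75 counts in infarcts against 3 in cortices gave a ratio of 27.8 per effective library size, with an exact 95% interval from 9.14 to 138. The interval covers counting error only, since no molecular identifiers mark which reads are copies of 1 molecule. The fitted log2 fold change of 4.59 (adjusted *p* = 3.47e-04, edgeR) rests on few contralateral counts. Leaving out contralateral cortex 3 gave 5.61 and leaving out contralateral cortex 1 gave 3.86, and the call held with each library left out. The call also held without the filter, with a log2 fold change of 4.59 (adjusted *p* = 6.6e-07, edgeR). All 8 markers of fibroblasts and leptomeningeal cells were upregulated in the same libraries, with a sum of 6720 to 8428 CPM in infarcts and 70.5 to 105 CPM in cortices, and their part in the level of *Gdnf* was not tested.

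Of the GDNF receptor genes described above, *Gfra1*, *Ret*, and *Ncam1*, none was called higher. *Gfra1* (ENSMUSG00000025089, chromosome 19, 58235604 to 58455909) had 80.9, 65.9 and 78.4 CPM in contralateral cortices and 53.8, 59.9 and 75.7 CPM in infarcts. Infarct 3 lay within the contralateral range and infarcts 1 and 2 just under it. The log2 fold change was -0.25 (SE 0.17, adjusted *p* = 0.216, edgeR), with a 95% interval from -0.62 to 0.13, so that a change by the fold threshold in either direction lies outside the interval. Of the exon bases of *Gfra1*, 7.60% face exons of the antisense gene *Gm16277*, and *Gm16277* itself had 0 counts in every library. *Ret*, the gene of the receptor kinase, had 33, 26 and 36 counts in infarcts and 43, 38 and 34 in cortices, a log2 fold change of -0.16 (adjusted *p* = 0.679, edgeR). *Ncam1* fell, from 154 ± 24.7 CPM to 63.6 ± 23.1 CPM.

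*Cntfr* (ENSMUSG00000028444, chromosome 4, 41657498 to 41697089), the gene of the anchored CNTF receptor, had 29.2, 25.2 and 36.8 CPM in contralateral cortices and 25.3, 13.0 and 22.0 CPM in infarcts. Infarct 1 slightly exceeded cortex 2, so that the regions overlapped, and infarct 2 lay lowest. The log2 fold change was -0.60 (SE 0.26, adjusted *p* = 0.0650, edgeR), with a 95% interval from -1.17 to -0.02 before adjustment. The gene was not called. Without infarct 1 it was -0.77 (adjusted *p* = 0.0191, edgeR), and without infarct 2 it was -0.34 (adjusted *p* = 0.186, edgeR). With the replicate number as a block the adjusted *p* was 0.0255, and without the filter on low counts it was 0.0272 (both edgeR). In each of these runs the change stayed under the fold threshold.

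*Cntf* (ENSMUSG00000079415, chromosome 19, 12763660 to 12765632) had 0 counts in all 6 libraries, and this 0 cannot be read as absence. In the annotation used here, 78.9% of its exon bases, and all 594 bases of its coding sequence, lie inside exons of *Zfp91* on the same strand, which a transcript of that gene reaches by reading through. Only 226 exon bases are its own. *Zfp91* had 2999 to 4316 counts in infarcts and 3707 to 6670 in cortices. Reads that overlap several genes are tallied apart from the genes, as 424960 to 712391 ambiguous reads per library. The level of *Cntf* was therefore not measured.

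**Figure D3:**
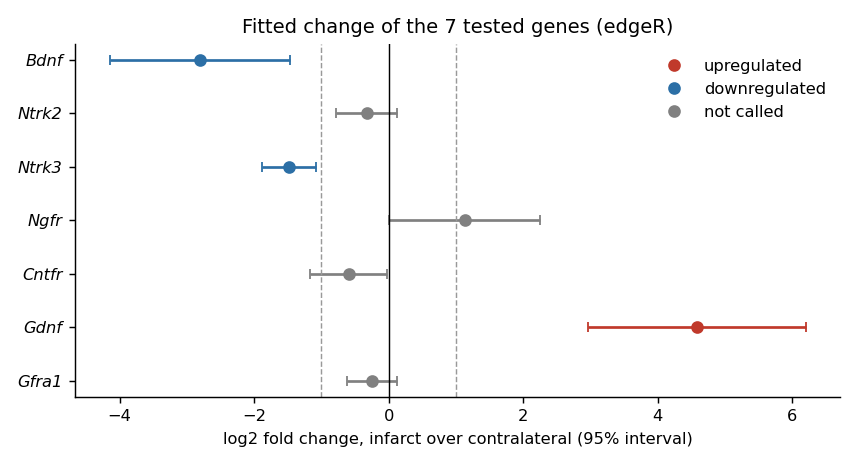
Log2 fold change of the 7 tested genes, infarct over contralateral cortex, with 95% intervals from edgeR's quasi-likelihood fit on 3 libraries per region. Dashed lines mark a fold change of 2. The interval of *Gdnf* lies above and those of *Bdnf* and *Ntrk3* lie below these lines, and the interval of *Ngfr* reaches from 0.01 to 2.25.

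Per kilobase of annotated exon, the scale on which levels of different genes can be set side by side, the order in contralateral cortices began with *Ntrk2* at 72.7 ± 1.94 CPM, followed by *Gfra1* at 13.7 ± 1.46, *Cntfr* at 10.9 ± 2.12 and *Bdnf* at 8.98 ± 1.10. *Ntrk3* followed at 1.47 ± 0.0958, *Ngfr* at 0.209 ± 0.0581, *Ntf3* at 0.173 ± 0.0607 and *Gdnf* at 0.0227 ± 0.0255. *Gfra1* and *Cntfr*, *Cntfr* and *Bdnf*, and *Ngfr* and *Ntf3* did not differ beyond their spread. Spread here is that of each gene between libraries, not of ratios within a library. Within each library *Gfra1* exceeded *Cntfr*, by 1.41-, 1.33- and 1.08-fold in contralateral cortices 1, 2 and 3. In infarcts 1, 2 and 3 the excess was 1.08-, 2.34- and 1.75-fold. By mean level, the order in infarcts was *Ntrk2* at 58.0 ± 14.7, *Gfra1* at 11.5 ± 2.06, *Cntfr* at 7.23 ± 2.29 and *Bdnf* at 1.27 ± 0.931. *Gfra1* and *Cntfr* again did not differ beyond their spread between libraries. *Ntrk3* at 0.526 ± 0.0948, *Gdnf* at 0.497 ± 0.136 and *Ngfr* at 0.452 ± 0.229 came next and differed beyond their spread neither from each other nor from *Bdnf*, before *Ntf3* at 0.0265 ± 0.0460. *Gdnf* thus moved from the last place to the level of *Ntrk3* and *Ngfr*. Exons of all annotated transcripts are summed in the length, which understates the level of genes with long, rarely used exons.

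The gene whose pattern over the 6 libraries lay closest to that of *Bdnf* was *Kcnip2*, which encodes a potassium channel-interacting protein, with a root mean square difference of 0.15 in log2 CPM set relative to the contralateral mean. For *Ntrk3* the closest gene was *Sod2*, for mitochondrial superoxide dismutase, at 0.04. *Phlpp1* was closest to *Ntrk2* at 0.07, *Bmpr1b* to *Gfra1* at 0.05 and *Zscan2* to *Cntfr* at 0.07. The rare genes had looser matches, *Sbk2* for *Gdnf* at 0.17 and *Kif4* for *Ngfr* at 0.19.

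Lists of other genes of the same signaling systems were then examined. Of 108 such genes, 95 were tested, of which 39 were upregulated, 27 were downregulated and 29 were not called. The shares over all tested genes, 25.7% upregulated and 20.9% downregulated, are the background for each list below. Among 22 other genes of the neurotrophin system, 19 were tested, 6 were upregulated and 8 downregulated, with a median log2 fold change of -0.86. *Ntf5*, for NT-4, had at most 3 counts in any library.

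The genes that rose on this list included proteases that act on proneurotrophins, directly or through another protease. *Plat*, for tissue plasminogen activator, which activates the plasmin that cleaves proBDNF, had 12.3 ± 1.08 CPM in cortices against 92.4 ± 11.4 CPM in infarcts and rose by 2.91 on the log2 scale (adjusted *p* = 5.57e-07, edgeR). *Serpini1*, for its neuronal inhibitor neuroserpin, fell by 3.13. *Plg*, the gene of plasminogen, had 1 count in infarct 1 and 0 counts in the other libraries. The proprotein convertase gene *Pcsk5* had a log2 fold change of 1.82, and *Nradd*, which encodes a relative of p75 with a death domain, one of 2.38. The downregulated genes *Lingo1* (log2 fold change -3.49) and *Rtn4r* (-3.25) encode partners of p75 in the Nogo receptor complex. *Sort1*, for sortilin, the coreceptor that p75 uses to bind proneurotrophins, fell by 1.43, from 1502 ± 114 CPM to 558 ± 140 CPM. Of the sortilin relatives, *Sorcs1* fell by 2.72.

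Of 11 other genes of the GDNF family, 6 were tested. *Gfra2* and *Gfra4*, for the receptors of neurturin and persephin, fell by 2.42 and 2.56 on the log2 scale, with *Gfra2* at 66.9 ± 1.80 CPM in cortices and 12.5 ± 0.584 CPM in infarcts (adjusted *p* = 8.16e-07, edgeR). They thereby moved apart from *Gfra1*, which was not called. *Gas1*, which encodes a distant relative of the GFRα receptors that binds RET, rose from 5.14 ± 1.94 CPM to 112 ± 21.4 CPM, a log2 fold change of 4.44. *Sdc3*, for a syndecan that can bind GDNF, had a log2 fold change of 1.54. The other ligand genes *Nrtn*, *Artn*, and *Pspn* had at most 4 counts in any library.

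The CNTF receptor system was the list with the most upregulated genes. Of 18 genes, 16 were tested, 14 (87.5%) were upregulated and 0 downregulated, with a median log2 fold change of 2.35. *Il6st* went from 168 ± 8.33 CPM to 1136 ± 210 CPM, a log2 increase of 2.76 ± 0.19 (SE, adjusted *p* = 1.55e-06, edgeR). *Lifr*, the other signaling subunit for CNTF, was at 107 ± 10.1 CPM in cortices and 70.5 ± 2.36 CPM in infarcts, and its log2 fold change of -0.61 (adjusted *p* = 0.00285, edgeR) stayed within the fold threshold. *Clcf1*, for another ligand of the CNTF receptor, rose by 2.93 on the log2 scale. Its counts were low, at 30, 56 and 39 in infarcts against 10, 3 and 5 in cortices. *Osm* had 23, 22 and 14 counts in infarcts and 0 in every cortex, and was at least 7.00-fold higher, with 3 counts in each contralateral library as the floor. *Osm* passed the filter on low counts only through its infarct counts. *Osmr*, for its receptor, rose by 4.17. Downstream, *Socs3* rose by 3.44. These genes are shared with other cytokines of the family. All 6 markers of microglia and macrophages were upregulated in the same libraries, with a sum of 1191 to 1623 CPM in infarcts and 142 to 191 CPM in cortices, and their part in these levels was not tested.

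Of 21 Trk signaling adaptors, 7 were upregulated, 2 downregulated and 12 not called, with a median log2 fold change of 0.17. Within the Shc family of adaptors, *Shc1* rose by 3.50 in log2 fold change (9.30 ± 1.33 CPM in cortices, 106 ± 23.2 CPM in infarcts) and the neuronal *Shc3* fell by 3.03 (14.2 ± 2.35 and 1.72 ± 0.980 CPM). *Plcg2*, the phospholipase gene of blood cells and microglia, rose by 3.73. *Gab2* and *Sh2b2* rose by 1.88 and 1.72, and *Frs3* fell by 1.64, although 16.3% of its exon bases face exons of an antisense gene. Of 11 p75 signaling adaptors, 10 were tested and 7 were upregulated, among them *Rhoa*, *Tradd*, and *Ripk2* with log2 fold changes of 1.74, 1.62 and 1.61. *Ndn*, for necdin, was called lower by a narrow margin (log2 fold change -1.76, adjusted *p* = 0.0462, edgeR), with 79, 126 and 382 counts in infarcts and 666, 429 and 857 in cortices. The call was lost without infarct 1 or infarct 2 and without contralateral cortex 1 or 3, with log2 fold changes from -1.95 to -1.17.

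Of 12 other neurotrophic proteins, 11 were tested, 3 were upregulated, 3 downregulated and 5 not called, with a median log2 fold change of 0.40. *Mdk*, for midkine, rose by 2.83 on the log2 scale, *Fgf2* by 1.99 and *Hgf* by 1.60, and *Nrg3* and *Nrg1*, for neuregulins, fell by 3.09 and 2.83. Of 14 genes known to respond to BDNF in neurons, 13 were tested, 0 were upregulated and 11 (84.6%) were downregulated, with a median log2 fold change of -2.73, compared with -3.07 for the pan-neuronal markers. *Homer1* fell by 3.61, *Vgf* by 3.20 and *Egr3* by 3.01, and *Gad1*, the gene of a GABA-synthesizing enzyme and itself a marker of inhibitory neurons, fell by 2.91. The list also holds *Sst*, *Pvalb*, *Npy*, and *Crh*, further genes of inhibitory neurons. The part of neuronal content in the decrease of this list was not tested. All 6 markers of inhibitory neurons, a list without *Gad1*, were also downregulated.

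**Figure D4:**
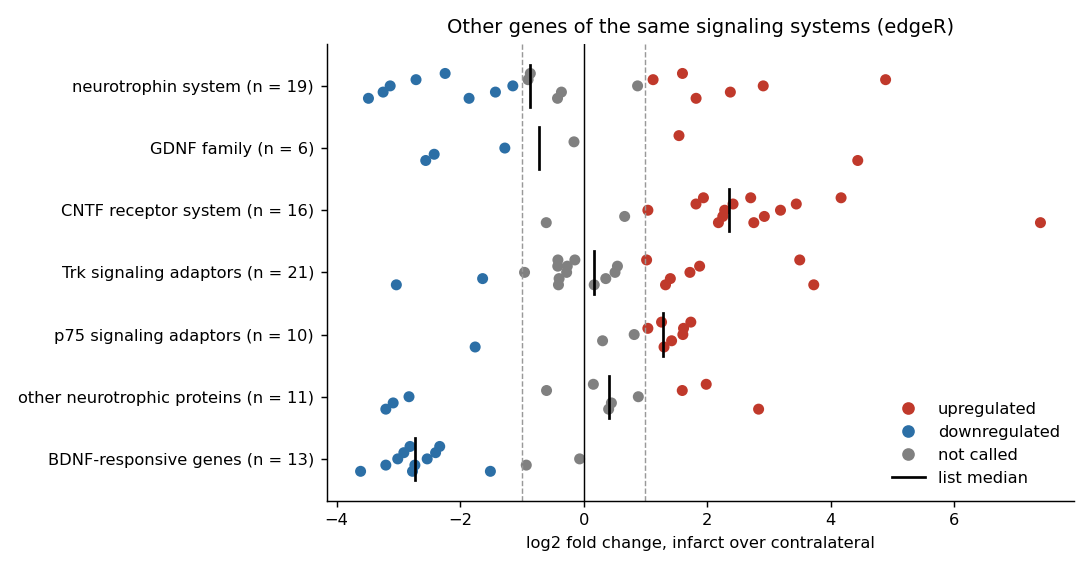
Log2 fold change, infarct over contralateral cortex, of each tested gene on 7 lists of genes from the same signaling systems. Points are genes, colored by their call, and black bars are list medians. Dashed lines mark a fold change of 2, and *Vgf* stands on 2 lists. The CNTF receptor system lies to the right, with a median of 2.35, and the genes that respond to BDNF lie to the left, with a median of -2.73. The point farthest to the right is *Osm*, whose fitted value of 7.40 is not fixed by the counts, because its contralateral counts are 0.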

How the data were processed

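The 9 genes, the gene lists and the tests were chosen with earlier results of these data known. Per the study's methods and the submitters' processing notes, the authors made stranded mRNA libraries, demultiplexed the paired reads with bcl2fastq 2.19, trimmed them with Trimmomatic 0.32 and aligned them to GRCm38 with STAR 2.5.2b. The deposited values are raw counts per Ensembl gene from htseq-count, whose version, annotation and strand setting are not given in the sources used here. Counts on genes totaled 12146959 to 13427057 per infarct library and 11943570 to 19933962 per contralateral library. The 5 entries that name no gene held 26.6% to 34.3% of the tallied reads of a library and were left out.

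Symbols, positions and exon lengths come from GENCODE M21 on GRCm38, in which 45229 of 46078 identifiers were found. Promoter windows come from RefSeq on GRCm38.p6. With edgeR 4.0.16 in R 4.3.3, all 6 libraries were filtered with filterByExpr (minimum count 10), scaled with TMM and fitted with region as the only term (glmQLFit, robust, and glmQLFTest). Benjamini-Hochberg adjustment ran over all 15554 tested genes. Standard errors are the log2 fold change divided by the square root of F. The fit was tested on simulated data. The alternatives were DESeq2 1.42.0, RLE size factors, library totals, no filter, no fold change threshold, the replicate number as a block, and each library left out. Tables and plots were made with Python 3.11.15, pandas 2.3.3 and matplotlib 3.10.9.

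Genes named besides the 9 are their direct partners, up to 4 called genes with the largest change per list and direction, overlapping neighbors, markers and the gene closest in pattern to each, of which 2 were ranked. *Plg*, *Nrtn*, *Artn*, and *Pspn* are outside this rule and were picked with their values in view. Some genes that this rule covers are not reported here.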

Additional observations from a re-analysis of the deposited data

How the results depend on the processing

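The 9 genes had 1 upregulated and 2 downregulated members in the reported fit. The upregulated count was 2 with scaling by library totals and ranged from 1 to 2 with each library left out in turn, where *Ngfr* joined *Gdnf* without infarct 3. The downregulated count stayed at 2 under every alternative run. Over all genes, the median log2 fold change moved by 0.20 with library totals, which also turned the uncalled log2 fold change of *Ret* from -0.16 to 0.046. With the replicate number as a block, the log2 fold changes were -3.04 for *Bdnf*, -1.49 for *Ntrk3* and 4.56 for *Gdnf*, and the member counts did not change. Same-numbered libraries deviated from their region means with correlations of -0.19, 0.10 and 0.00 across genes, so the numbers were not taken to pair mice. The depth limits *Ntf3*, *Ngfr*, and *Gdnf*, which had at most 32 counts in any library. Besides the libraries named above, *Ndn* lost its call with library totals and without the filter, and it kept its direction throughout.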
